A study of Mus musculus with 71 samples.

Results

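The regions described here are 2293 of the 155738 intervals in which chromatin accessibility was measured, or 1.472%. They were chosen by their accessibility late in the differentiation of mouse embryonic stem cells towards ventral spinal cord progenitors: WT cells lost accessibility there between days 9 and 11, and MUT cells on day 11 lay above WT cells of the same day. The value used throughout is the authors' normalised read count per interval, and differences are on the scale log2(value + 5). A region had to fall by at least 0.8 from the WT day 9 NFIAn groups to the WT day 11 groups, and to be at least 0.8 higher in the MUT day 11 groups than in the WT day 11 groups, each as a mean over 3 progenitor populations. Of 14323 intervals that met the WT difference, 16.01% were chosen, and of 5433 that met the genotype difference, 42.21%. The libraries of WT day 9 NFIAn, WT day 11 and MUT day 11 made this choice, so values from them are given as descriptions. This holds also where a day 11 count used the thresholds of an F-test. All 2293 regions passed the filter on low values (2 or more libraries with a value of 10 or higher).

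Regulatory DNA becomes accessible where transcription factors and remodelling enzymes displace nucleosomes, and it closes again when those factors are lost or replaced. ATAC-seq reads this through the transposase Tn5, which inserts sequencing adapters into open DNA. In the ventral neural tube, progenitors are arranged in domains by Sonic hedgehog signalling: p0, p1 and p2 give rise to interneurons, and pMN gives rise to motor neurons and later to oligodendrocyte precursors. All domains also change with time, from making neurons to making glia. NFIA, a transcription factor of the nuclear factor I family, is known for its part in that switch.

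The series holds 71 libraries, 38 WT and 33 MUT, made by CaTS-ATAC, in which fixed cells are stained for marker proteins inside the cell and sorted by population before sequencing. Cells were cultured from mouse embryonic stem cells, given retinoic acid and an agonist of Smoothened from day 3, kept in the agonist alone from day 5, and collected on days 5, 7, 9 and 11 as p0-p1, p2 and pMN. There were 26 groups, 7 of 2 libraries and 19 of 3, and reads in the intervals, recovered from the table, ranged over libraries from 20034731 to 31315134 (median 24375871).

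The groups were the following. WT cells on days 5 and 7 were labelled NFIAn, on day 9 NFIAn in all 3 populations and also NFIAp in p2 and pMN, and on day 11 NFIAp. MUT cells were labelled NFIAn on all 4 days. The labels name neither the mutated gene nor the stem cell line, and do not say whether a genotype was 1 clone. NFIAn and NFIAp are read here as sorted fractions without and with the NFIA protein. On day 11, genotype and fraction therefore change together and cannot be told apart in these libraries, and in WT the step from day 9 NFIAn to day 11 changes day and fraction together. Separate cultures are not stated for the replicates, and the p-values then cover only the scatter of these libraries, possibly technical. Intervals are identified by number alone. Neighbouring genes, sequence and marker genes were not analysed here.

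In a run of 5 consecutive intervals (Interval_143053 to Interval_143057) nearly all WT libraries held between 148 and 519 reads and nearly all MUT libraries at most 1. The library labelled WT D7 pMN replicate 3 held 0 reads there and the library labelled MUT D7 pMN replicate 3 held 213, so both go against their genotype labels. Of the WT D9 p2 NFIAp libraries, the one labelled replicate 2 lay at 0.938 of the way from the p2 to the pMN libraries of that day, against 0.525 and 0.401 for replicates 1 and 3. None of the 3 was used to choose the regions. Levels, counts and medians over the regions that rest on them are given with and without them where both were computed. Of the 2293 regions, 151 lay in 3 long blocks of consecutively numbered intervals that were shifted as a whole between the genotypes on days 5 and 7; the block from 40116 to 41030 was higher in MUT (median 0.35) and held 47 of them, or 5.14% of its intervals.

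Accessibility in the regions was highest on day 7 and lowest on day 11 in WT. The median over the 2293 regions was computed in each library and is given as the lowest, median and highest library of each condition, populations together. In WT it was 32.6, 46.7 and 57.8 normalised reads on day 5 (6 libraries) and 68.1, 87.0 and 107.9 on day 7 (9 libraries). The highest of these, 107.9, is the library labelled WT D7 pMN replicate 3, and the next is 98.5. On day 9 it was 45.5, 63.3 and 72.5 in the NFIAn libraries (8) and 38.8, 49.4 and 61.2 in the NFIAp libraries (6). By day 11 it was 15.1, 21.7 and 25.8 in WT (9 libraries), below the lowest library of any earlier WT condition.

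MUT libraries lay partly above WT up to day 7 and wholly above it later. Their medians were 37.5, 56.5 and 73.0 on day 5 (9 libraries) and 85.1, 99.4 and 111 on day 7 (9). Within a population on day 5, the genotypes overlapped in p0-p1 and p2, while in pMN the WT libraries held 51.3 and 57.8 and the MUT libraries 66.4 to 73.0. On day 7 they overlapped in p0-p1, but not in p2, with 73.8 to 98.5 in WT and 99.4 to 111 in MUT. In pMN on day 7 they overlapped with the libraries labelled replicate 3 and not without them, when WT held 78.4 and 90.7 and MUT 100.4 and 105. On day 9 they were 75.0, 90.0 and 105 (6 libraries), so the lowest MUT library lay above the highest WT library of that day, 72.5. On day 11 they were 37.2, 49.6 and 52.3 (9 libraries), above all WT day 11 libraries, as the choice of regions requires of the mean. In the same libraries the median over all intervals stayed between 24.9 and 37.1, without this rise and fall. The rise and fall was not particular to the regions, however. It was also seen in the other intervals that met the WT difference of the rule but not its genotype difference. Their median library held 40.5, 56.4, 36.2 and 13.0 in WT on days 5, 7, 9 (NFIAn) and 11. In MUT it held 42.8, 60.6, 44.1 and 19.3 on these days. The rule also sets their WT decrease after day 9.

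**Figure D1:**
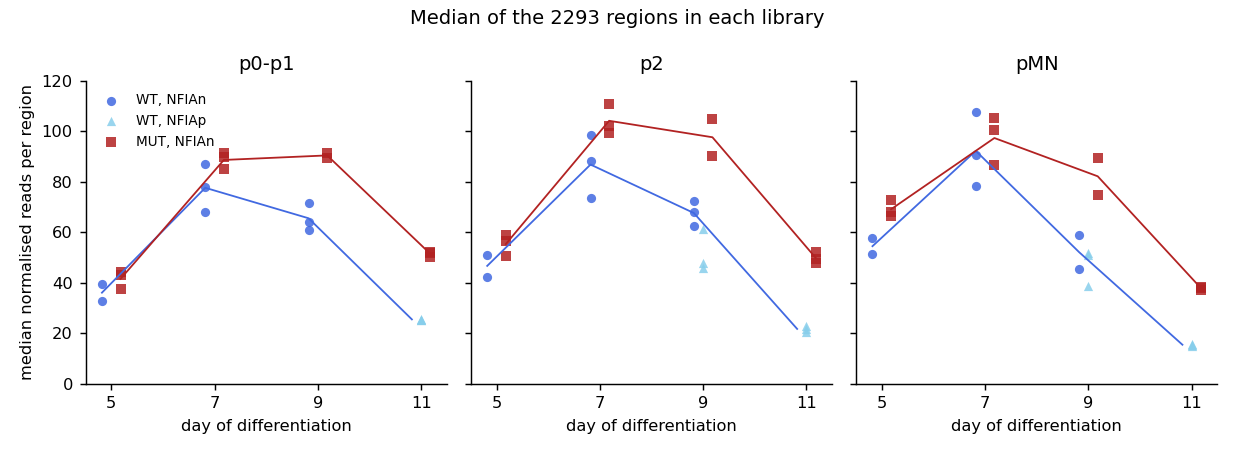
Each point is 1 library: the median normalised read count over the 2293 regions, by day of differentiation, in 1 panel per population, for WT NFIAn (circles), WT NFIAp (triangles) and MUT NFIAn (squares), with lines through the group means that leave out day 9 NFIAp. WT libraries go from a highest day 7 value of 107.9 (98.5 without the library labelled WT D7 pMN replicate 3) to between 15.1 and 25.8 on day 11, and MUT libraries end between 37.2 and 52.3; the day 9 NFIAn WT, day 11 WT and day 11 MUT libraries were used to choose the regions.

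The regions did lose accessibility in MUT, so they are described here by the difference from WT and not as regions that stayed open. From day 9 to day 11 the median change over regions was -0.78 in MUT, and 1116 regions (48.7%) went down by at least 0.8. Only 36 regions were higher in MUT on day 11 than on day 9. The corresponding WT change from day 9 NFIAn to day 11 was -1.22, a value the rule itself sets. MUT day 11 lay below WT day 9 NFIAn by a median of 0.26 (log2 difference -0.26), and 431 regions (18.8%) were at or above the WT day 9 level. Expressed as the share of the WT decrease that was absent in MUT, the median was 78.2%, with quartiles of 61.1% and 95.2%, and in 241 regions it was under 50%. These values share the libraries that chose the regions and describe the regions chosen. With all libraries scaled to equal totals, the median of MUT minus WT on day 11 over all intervals moved from 0.05 to 0.17; over the regions it moved from 0.94 to 1.07, so the distance between them was 0.89 and 0.90.

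The difference was present in most regions in each population. MUT minus WT on day 11 had medians of 0.84 for p0-p1, 1.00 for p2 and 1.06 for pMN. All 3 MUT libraries lay above all 3 WT libraries in 1940 regions for p0-p1, 2173 for p2 and 2154 for pMN, and in 1716 regions for every population. In 570 regions all 9 MUT libraries lay above all 9 WT libraries. These day 11 libraries chose the regions, so such separation follows in large part from the choice. Its share over all intervals was not computed. Both differences of the rule were met in each of the 3 populations taken alone by 517 regions, in 2 of them by 1233, in 1 by 520, and in none by 23, which passed on the mean.

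The 6 regions that ranked highest by the smaller of their rule differences show the course in single intervals. Only regions whose mean was at least the median of all intervals, with day 11 libraries separated in each population, were ranked. The separation of their day 11 libraries within each population was therefore required by the choice. Interval_10421 had 113, 164 and 221 normalised reads (lowest, median and highest of 8 libraries) in WT day 9 NFIAn, 29.3, 50.7 and 65.8 in WT day 11 (9 libraries), and 143, 162 and 218 in MUT day 11 (9). The MUT day 11 libraries lay within or near the WT day 9 range and did not overlap WT day 11. In Interval_107608 the same conditions held 49.7, 71.7 and 152; 7.55, 13.0 and 40.0; and 43.9, 57.8 and 77.9. Its MUT day 11 libraries did not overlap WT day 11 and lay around the lower part of the WT day 9 range. On day 7 it held 103, 184 and 232 in WT and 118, 215 and 348 in MUT.

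Interval_78389 was the most accessible of the 6. It held 589, 806 and 1139 normalised reads in WT day 7, 203, 285 and 382 in WT day 9 NFIAn and 46.2, 67.8 and 95.3 in WT day 11, against 103, 198 and 451 in MUT day 11. The MUT day 11 libraries were spread over a wide range and none overlapped WT day 11. Interval_153345 went from 69.9, 129 and 170.2 in WT day 9 NFIAn to 9.29, 11.8 and 17.6 in WT day 11, and held 28.9, 46.8 and 73.4 in MUT day 11, which lay mostly between both WT ranges and overlapped that of day 9 alone. Interval_127235 held 34.8, 67.0 and 112 in WT day 9 NFIAn, 8.49, 18.8 and 32.7 in WT day 11 and 44.7, 68.1 and 87.2 in MUT day 11. Interval_54542 held 34.9, 74.8 and 100.2, then 10.7, 18.7 and 29.2, and 49.0, 73.4 and 104 in the same conditions. In these last intervals the MUT day 11 median lay close to that of WT day 9.

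**Figure D2:**
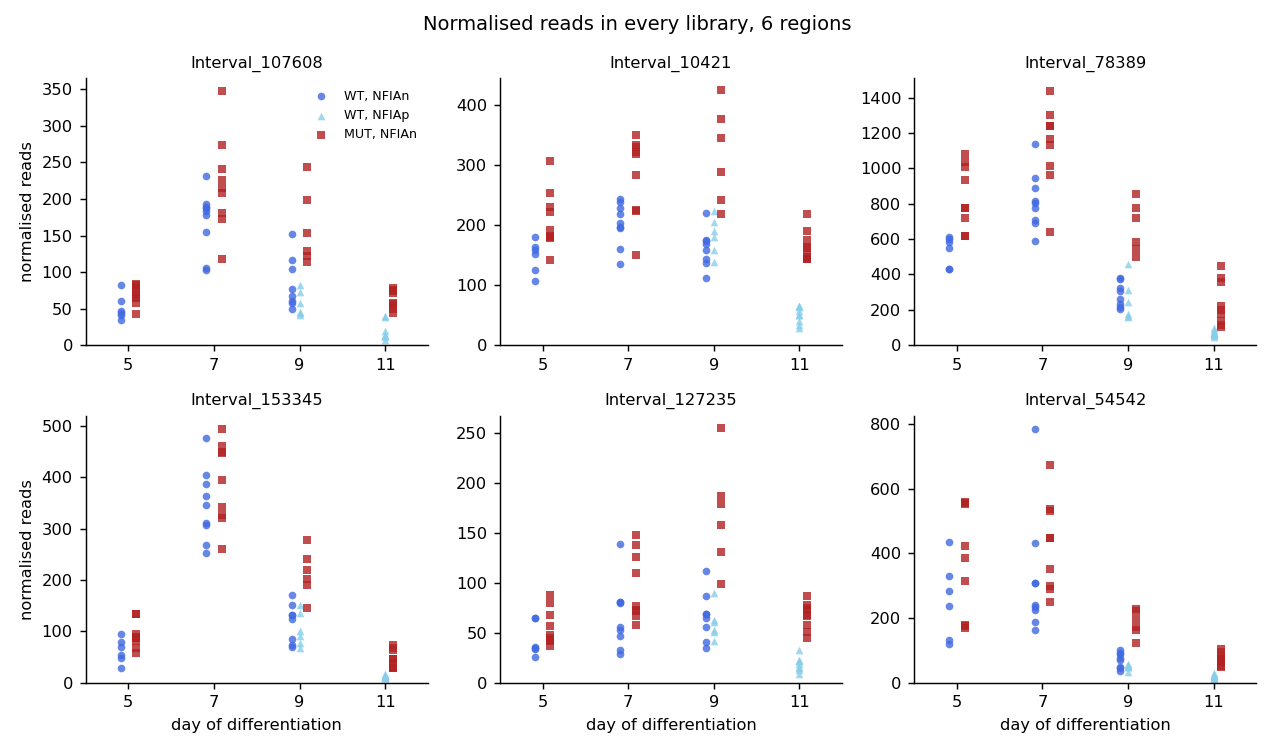
Normalised reads of the 6 regions that ranked highest by the smaller of their rule differences. There is 1 point per library, by day, for WT NFIAn (circles), WT NFIAp (triangles) and MUT NFIAn (squares). On day 11 no MUT library of any of the 6 overlaps a WT library, a separation that the choice of the 6 required within each population. With populations together, the genotypes overlap on days 5 and 7 in all 6, except in Interval_78389 on day 5. There the highest WT library is at 612 and the lowest MUT library at 617. Within each population, the day 5 libraries also do not overlap in Interval_54542 and Interval_127235.

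Before day 9 few of the regions differed between the genotypes by the minimum change of 1, while more passed the test at smaller differences. On day 5, 8 of the 2293 regions were higher in MUT and 0 lower (limma over all intervals; a call needed a Benjamini-Hochberg adjusted p below 0.05 plus a log2 change of 1 or more), where 0.0963% of all tested intervals were higher and 0.0199% lower. Of these 8 regions, 5 lay outside the blocks shifted between the genotypes. With no minimum change, 371 regions passed as higher and 8 as lower. At an unadjusted p under 0.05, 742 regions were higher and 30 lower, and edgeR on the recovered reads called 26 higher and 0 lower. For these settings, here and on day 7, the shares of all intervals were not tabulated, so the counts have no background. Without WT D5 pMN replicate 2, 4 were called. The median difference was 0.19 over the regions and 0.03 over all intervals, and 79.9% of regions lay above 0, against 56.2% of all intervals. On day 7, 1 region was higher and 0 lower (0.0199% and 0.00835% of all intervals), with 275 and 9 when no minimum change was set, 670 and 52 at an unadjusted p under 0.05 and 2 and 0 by edgeR. The day 7 median was 0.15, against 0.02 over all intervals. Without the 3 libraries in doubt, 7 regions were called higher on day 7 and the median was 0.21. With 1 library left out, 3 were called without MUT D7 pMN replicate 3, and 0 without MUT D7 pMN replicate 1 or 2, MUT D7 p0-p1 replicate 2 or WT D7 pMN replicate 1 or 2. In pMN alone the day 7 median was 0.06 with the libraries labelled replicate 3 and 0.21 without them.

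Interval_30108 was called on day 5. It held in WT day 5 112 and 149.6 normalised reads (p0-p1), 98.8 and 130.2 (p2), and 87.2 and 117 (pMN). MUT day 5 held 392, 351 and 267 (p0-p1), 361, 256 and 299.9 (p2), and 356, 273.5 and 300.0 (pMN). No MUT library overlapped WT, and the difference was 1.42 ± 0.17 (SE; limma adjusted p = 4.82e-08). It was also the region with the largest genotype difference on day 11, 2.26, with 21.4, 27.8 and 49.0 in WT and 118, 184 and 210.5 in MUT. On day 7 the library labelled WT D7 pMN replicate 3 held 256 reads there and the one labelled MUT D7 pMN replicate 3 held 61.9, while the other WT libraries held at most 124 and the other MUT libraries at least 171.

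Interval_112329 was higher in MUT on days 5 and 7, and was the 1 region called on day 7. On day 5 it held 7.92, 35.3 and 83.0 normalised reads in WT and 29.5, 94.4 and 240.5 in MUT, a difference of 1.26 ± 0.18 (SE; limma adjusted p = 3.24e-06). The conditions overlap because pMN was high in both genotypes; within each population they did not. On day 7 the difference was 1.03 (limma adjusted p = 2.07e-05). By day 11 it was near the bottom of the scale in WT, at 1.89, 4.34 and 10.7, against 18.1, 32.7 and 49.2 in MUT.

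**Figure D3:**
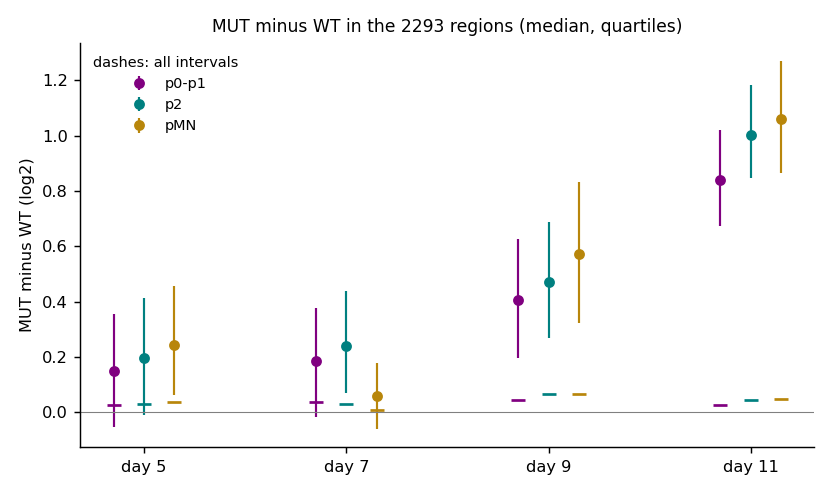
MUT minus WT difference (log2 scale) by day and population: points are medians over the 2293 regions, bars the quartiles and dashes the medians over all intervals. Day 9 is against WT NFIAn. Medians over the mean of the populations were 0.19 on day 5, 0.15 on day 7, 0.47 on day 9 and 0.94 on day 11; the last 2 days share libraries with the rule.

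On day 9 more of the regions differed between MUT and WT cells. MUT day 9 was set against the WT NFIAp fraction of p2 and pMN, 4 libraries against 6, neither of which entered the rule. Of the 2293 regions, 665 (29.0%) were higher in MUT and 0 lower (limma, adjusted as above), where 3.05% of all intervals were higher and 1.70% lower. At an unadjusted p under 0.05 there were 1874 higher and 3 lower, and edgeR called 753 and 1, with no shares of all intervals tabulated for these settings. The median difference was 0.77 over the regions and 0.01 over all intervals, and 2235 regions (97.5%) lay above 0. Among the 12030 other intervals that closed in WT without being 0.8 higher in MUT on day 11, 15.1% were called higher and the median was 0.51. Genotype and fraction cannot be told apart here, since all MUT libraries were NFIAn. Without replicate 2 of WT D9 p2 NFIAp and the 2 day 7 libraries in doubt, 802 regions were called and the median was 0.83.

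The day 9 difference was seen in both populations. It had a median of 0.81 in p2 and 0.70 in pMN, and the p2 value was 0.94 without the library in doubt. Both MUT libraries lay above all 3 NFIAp libraries in 1493 regions in p2 and in 1736 in pMN, and 579 of the 665 regions called were separated in both. Such separation was not counted over all intervals or over the other intervals that closed in WT, so these counts have no background. The 1493 and the 579 include the p2 NFIAp library in doubt and were not computed without it. That library had the highest median over the regions of its group, 61.2 against 46.0 and 47.8. The fractions of WT themselves differed less: NFIAp minus NFIAn had a median of -0.23 in the regions and 0.01 over all intervals, a description, since NFIAn chose the regions. Against WT NFIAn, MUT day 9 had a median of 0.47, with 95.9% of regions above 0. From day 9 NFIAp to day 11, WT changed by a median of -1.11 in p2 and pMN.

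**Figure D4:**
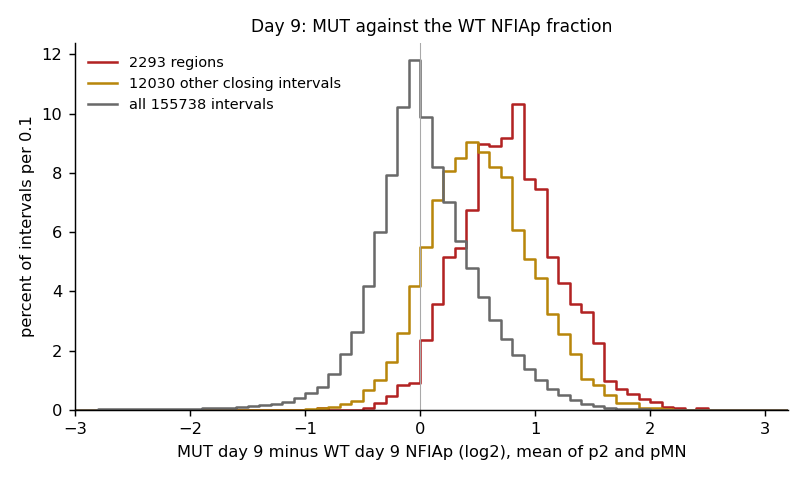
Percent of intervals per 0.1 of the MUT day 9 minus WT day 9 NFIAp difference (log2 scale, mean of p2 and pMN), for the 2293 regions, the 12030 other intervals that closed in WT, and all 155738 intervals. The curves are centred at medians of 0.77, 0.51 and 0.01.

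Interval_133404 had the largest day 9 difference of those separated in both populations. MUT held 311 and 559 normalised reads in p2 and 130.2 and 302 in pMN, against 41.3, 126.5 and 46.8 in WT p2 NFIAp and 23.3, 42.3 and 59.2 in pMN NFIAp. The change was 2.42 ± 0.25 (SE; limma adjusted p = 2.22e-11), and the highest NFIAp library, at 126.5, was the one labelled p2 replicate 2. Its day 11 levels were low in both genotypes, 2.83, 4.94 and 12.7 in WT and 7.63, 20.5 and 34.9 in MUT. On day 7 it had been at medians of 782 and 884, so most of its accessibility was lost in both genotypes by day 11. Interval_107147 behaved otherwise. It held 125.5 and 122 in MUT p2 and 94.7 and 72.8 in MUT pMN, against 16.0 to 20.1 in all 6 NFIAp libraries, a difference of 2.21 ± 0.21 (SE; limma adjusted p = 6.33e-13). It rose in MUT between days 7 and 9 by 1.04 (limma adjusted p = 5.93e-07), a value that rests in part on a library in doubt. On day 7 MUT pMN held 73.6, 76.9 and 18.6 reads there, the last in the library labelled replicate 3. The rise was not computed without that library. On day 11 Interval_107147 kept 30.4, 61.5 and 89.0 reads in MUT against 7.55, 11.3 and 16.7 in WT.

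The rise before the decrease was shared by the genotypes. From day 5 to day 7, 889 regions (38.8%) rose and 29 fell in WT (7.67% and 4.12% of all intervals), and 858 (37.4%) rose and 31 fell in MUT (7.28% and 4.49%). Among the 12030 other intervals that closed in WT, 3207 (26.7%) rose in WT and 3128 in MUT. The median change was 0.74 in WT and 0.72 in MUT, against 0.000675 and -0.02 over all intervals. The genotypes share no library in these comparisons. Of the regions that rose, 779 did so in both, which is 87.6% of the WT list and 90.8% of the MUT list, and no region that rose in one fell in the other. Of those that fell, 22 were shared. Without the 3 libraries in doubt the counts were 857 and 35 in WT and 875 and 25 in MUT.

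**Figure D5:**
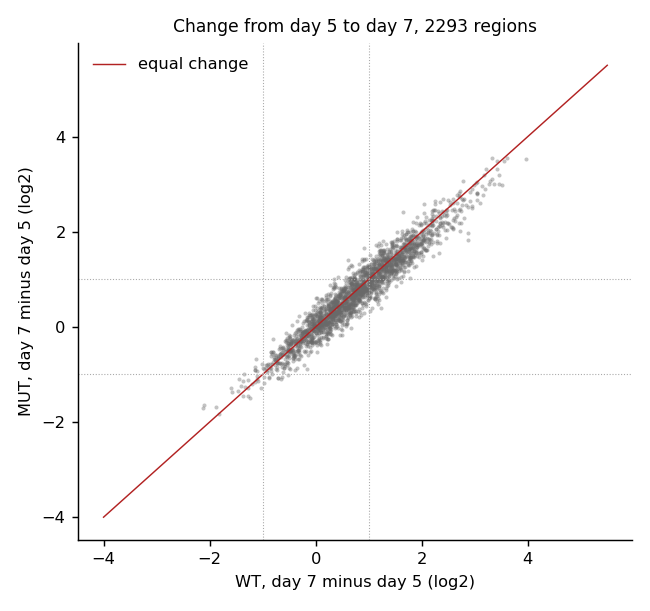
Change from day 5 to day 7 (log2 scale, mean over 3 populations) of each of the 2293 regions in WT (horizontal) and MUT (vertical). Dotted lines mark a change of 1 in either direction, and the diagonal an equal change in both. Points lie along the diagonal; 779 regions rose in both genotypes and 22 fell in both.

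Among regions that rose to day 7, Interval_140735 had the largest WT change. It went from 3.08, 4.49 and 9.05 normalised reads on day 5 to 92.5, 153.6 and 257 on day 7, a change of 3.96 ± 0.17 (SE; limma adjusted p = 1.45e-29), and in MUT from 2.94, 5.56 and 8.65 to 74.3, 112 and 158. It lies in the block from 135340 to 143368 that was shifted towards WT. On day 11 it held 2.83, 7.26 and 11.6 in WT and 11.1, 15.2 and 29.6 in MUT. Interval_143655 rose by 3.60 ± 0.18 in WT and 3.56 ± 0.16 in MUT, reaching medians of 226.5 and 216 reads. Interval_145407 rose by 3.56 ± 0.16 (SE; limma adjusted p = 7.32e-29) in MUT, from 2.10, 5.68 and 7.52 to 71.7, 127 and 149.5, and by 3.32 in WT. These 3 intervals had few reads on day 5 and rose to day 7 in both genotypes.

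A few regions fell by day 7. Interval_26531 fell by 2.10 in WT (limma adjusted p = 1.19e-17), from 266, 347.5 and 395 normalised reads to 40.2, 78.1 and 102, and fell by 1.65 in MUT. Interval_95325 fell by 1.83 in both genotypes; in MUT it went from 375, 472.5 and 622 to 73.0, 160.0 and 185. Interval_82857 fell by 2.13 in WT (limma adjusted p = 3.17e-10), with a difference among populations: on day 7 it held 24.5, 27.7 and 25.7 in WT p0-p1 and 467, 389 and 473 in WT pMN. Across the 29 regions that fell in WT, the day 11 genotype difference had a median of 0.94, as it had in the 889 that rose and in the 1375 not called. The rule sets a lower limit to this difference, so such like medians follow in large part from the choice. The share of the WT decrease that was absent in MUT had a median of 83.0% in those that fell. It was 72.7% in those that rose and 81.0% in those not called. These shares are descriptions too, from libraries that chose the regions.

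MUT between days 7 and 9 showed both directions. Of the 2293 regions, 123 rose and 211 fell (3.85% and 4.11% of all intervals), with a median of -0.10. Of the other intervals that closed in WT, 1.81% rose and 17.4% fell. With equal library totals the counts were 159 and 147, so which direction prevails depends on the scaling. With the libraries as labelled, more regions peaked on day 7 in WT than in MUT. In WT the highest day of a region's mean was day 7 in 1306 (57.0%) and day 9 NFIAn in 594. In MUT it was day 7 in 912 (39.8%), day 9 in 960 (41.9%) and day 11 in 25. The day was the same in 1753 regions (76.5%), and 377 had day 7 in WT and day 9 in MUT. The WT count on day 9 uses libraries of the rule and is a description. All these highest-day counts include the 2 day 7 libraries in doubt and were not computed without them. They were also not computed over all intervals or over the other intervals that closed in WT.

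Interval_109524 and Interval_37322 rose most between days 7 and 9 in MUT. The former went from 16.7, 25.7 and 35.5 normalised reads to 143, 192 and 354, a change of 2.80 ± 0.21 (SE; limma adjusted p = 2.46e-17), after 1.08, 3.22 and 6.87 on day 5. WT NFIAn was at a like level on day 9, 83.8, 203 and 337, and on day 11 the levels were 42.7, 76.3 and 203 in WT and 121, 159 and 228 in MUT. Interval_37322 rose by 2.30 ± 0.14 (SE; limma adjusted p = 5.00e-21), from a median of 24.0 to 144. Both had already risen from day 5 to day 7. Interval_109524 did so by 1.85 in MUT and 2.14 in WT, and Interval_37322 by 1.88 and 1.95. In MUT these intervals thus opened over both steps. In contrast, Interval_74360 fell by 1.92 (limma adjusted p = 6.72e-14), from 110.4, 151 and 201 to 25.1, 32.5 and 55.3, and Interval_128719 fell by 1.85 (limma adjusted p = 2.32e-16), from 524, 560.5 and 725 to 115, 142 and 284. In the last 2 intervals most of the MUT decrease took place before day 9.

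The regions were not equally open in the 3 populations, and the order changed with time. On day 5, populations differed in 713 regions (31.1%) in WT and 705 (30.7%) in MUT, where 15.0% and 16.4% of all intervals did (limma's moderated F-test; adjusted p below 0.05 plus a log2 range of 1 or more). The other intervals that closed in WT differed in 27.1% and 28.2%. Accessibility was highest in pMN in 524 of the 713 and in 593 of the 705. The lists shared 573 regions, 80.4% of the WT list and 81.3% of the MUT list, and the highest population was the same in 552 of them. On day 9 in MUT 657 regions differed (28.7%, against 11.4% of all intervals and 21.7% of the others that closed in WT), and the highest population was p0-p1 for 288, p2 for 224 and pMN for 145. On day 11, 672 met the same thresholds in WT and 646 in MUT (29.3% and 28.2%, against 19.6% and 15.2% of all intervals). Of the other intervals that closed in WT, 15.2% and 16.4% did. Among the 672 and 646 regions pMN was the lowest in 564 and 483, and p0-p1 the highest in 509 and 371. Which population was highest or lowest was not counted over all intervals or over the others that closed in WT. The day 11 libraries chose the regions, through their mean over populations, so the day 11 counts are descriptions and not tests.

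The library medians show the same order. In WT day 5, p0-p1 had 36.1 ± 4.94, p2 had 46.7 ± 6.23 and pMN had 54.5 ± 4.64 (SD, n = 2 each). In WT day 11 they were 25.5 ± 0.24, 21.8 ± 1.18 and 15.5 ± 0.35 (SD, n = 3 each). MUT went from 41.6 ± 3.59, 55.4 ± 4.43 and 69.2 ± 3.43 on day 5 to 51.4 ± 1.12, 49.9 ± 2.30 and 37.9 ± 0.56 on day 11 (SD, n = 3 each). On day 11 p0-p1 and p2 overlapped in MUT and did not in WT, and pMN lay below both in each genotype. The change of order was not particular to the regions. In the other intervals that closed in WT, the WT day 5 library medians were 36.2 and 31.5 in p0-p1 and 49.8 and 45.1 in pMN. On WT day 11 they were 15.1 to 16.6 in p0-p1 and 10.4 to 11.1 in pMN.

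Single regions show how far populations could differ. Interval_1302 held in WT day 5 2.26 and 7.87 normalised reads (p0-p1), 29.1 and 34.7 (p2) and 182 and 134 (pMN), a range of 4.06 (limma's F-test adjusted p = 8.04e-13). By day 11 its WT libraries lay between 6.61 and 20.8 in all populations, a range of 0.72. Interval_9212 held in MUT day 5 11.4, 5.89 and 10.5 (p0-p1), 43.0, 59.1 and 65.6 (p2) and 224, 203 and 222 (pMN), a range of 3.98 (limma's F-test adjusted p = 1.88e-18). On day 11 pMN was the lowest, at 80.6, 69.5 and 63.4, against 181, 132 and 86.0 in p0-p1 and 190.1, 161 and 87.2 in p2. The range, from pMN to p2, was 0.93.

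Other regions were most accessible in p0-p1 late in the course. Interval_625 was so on days 9 and 11: in MUT day 9 p0-p1 held 288.5 and 333, p2 held 62.7 and 115, and pMN held 22.7 and 24.6 (range 3.46; limma's F-test adjusted p = 5.22e-12). On day 11 it held 55.6, 74.7 and 98.9 in WT p0-p1 and 4.72, 10.4 and 13.0 in WT pMN, and 158, 158 and 168 against 18.5, 15.7 and 16.8 in MUT. Interval_129062 held 96.6, 117.5 and 320.4 in WT day 11 p0-p1 and at most 14.0 in the p2 and pMN libraries (range 3.34). In MUT day 11 it held 278, 312.5 and 466 in p0-p1 and at most 36.4 elsewhere (range 3.60). Its ranges on day 5 were smaller, 0.94 in WT (limma's F-test adjusted p = 0.076) and 1.08 in MUT (limma's F-test adjusted p = 0.00387).

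The genotype difference on day 11 was not equally large in every population of single regions. The rule used this contrast, so what follows is a description, and the count below is not read as a test. By the thresholds above for the F-test of the interaction, 30 regions (1.31%) were counted, against 1.48% of all intervals. The 3 with the largest ranges were Interval_59270 (2.19), Interval_11666 (1.98) and Interval_46265 (1.84). Interval_59270 held 208, 107.7 and 88.0 normalised reads in WT day 11 p0-p1 and 104, 78.8 and 100.3 in MUT, while in pMN WT held 14.2, 6.22 and 13.0 and MUT 51.2, 56.8 and 41.0. Its p0-p1 libraries overlapped between the genotypes and its pMN libraries did not. Interval_11666 held 453, 245 and 161.5 in WT p0-p1 against 237, 153 and 227.5 in MUT, which overlap, and 59.8, 76.2 and 96.4 in WT p2 against 239, 232 and 259 in MUT, which do not. Interval_46265 held 25.4, 24.9 and 8.17 in WT p0-p1 against 18.8, 19.7 and 20.6 in MUT, and in pMN 7.55, 6.22 and 4.64 against 47.9, 41.1 and 27.1. With each day 11 library left out the 3 ranges went from 1.84 to 2.44, 1.59 to 2.32 and 1.63 to 2.24, lowest without WT D11 p0-p1 replicate 1 and highest without replicate 3.

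Regions at the edge of the rule looked like those around them. Interval_54797 was the nearest inside, with a genotype difference of 0.80, at 55.5, 67.0 and 125 normalised reads in WT day 9 NFIAn, 23.2, 41.0 and 65.9 in WT day 11 and 49.5, 77.9 and 109.6 in MUT day 11. Interval_144198 was next, with a genotype difference of 0.80014. Just outside lay Interval_122016, whose genotype difference was 0.79988, and Interval_42664, whose WT decrease was 0.79985. Their day 11 medians were 44.2 and 50.8 in WT and 88.8 and 110.4 in MUT.

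The regions were stronger than the typical interval. Their mean value over all libraries had a median of 67.9 normalised reads, against 31.8 over all intervals and 42.1 in the other intervals that closed in WT, and 1838 (80.2%) were at or above the median of all intervals. Members were also numbered next to each other: 110 (4.80%) were followed by another member, where 1.472% of all intervals are members, and 215 lay in 105 runs of at least 2, none longer than 3. If the numbers follow genome order, which the table does not state, these are neighbours.

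In the run of Interval_40463, Interval_40464 and Interval_40465, which lies in the block higher in MUT, the genotypes already differed on day 5, by 0.82, 0.76 and 0.73 (limma adjusted p = 0.00145, 0.00124 and 0.00306, under the minimum change of 1). On day 9 MUT exceeded NFIAp there by 1.11, 1.83 and 1.73. The run of Interval_52738, Interval_52739 and Interval_52740 lies outside the blocks. Its medians went from 175, 203 and 41.7 normalised reads in WT day 9 NFIAn to 43.65, 81.5 and 19.5 in WT day 11, and were 121, 163 and 45.7 in MUT day 11. Each of the 3 had a MUT day 11 median between its WT day 9 and WT day 11 medians or just above the former, in libraries that chose the regions. From day 5 to day 7, WT changed by 2.09, 1.35 and 1.10 in this run. In the run of Interval_40463, Interval_40464 and Interval_40465 that change was 1.36, -0.51 and -1.37.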

How the data were processed

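The authors deposited 1 table of signal values, normalised read counts per numbered interval in 71 libraries; the genome build was mm10 per the submitters' processing notes, and the aligner, peak caller and counting tool are not given in the sources used here. The deposited values of each column were whole multiples of 1 step, so the reads per library could be recovered (100% of values whole within 0.01); for 2 libraries, WT D9 pMN NFIAn replicate 2 and MUT D11 p2 replicate 1, that step was so close to 1 that scaling could not be shown. Values were analysed as log2(value + 5).

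The regions, comparisons and named intervals were chosen with earlier results of these data known. Tests used limma 3.58.1 in R 4.3.3, a single fit of 26 group means (71 libraries, 45 residual degrees of freedom, mean-variance trend) over 155734 intervals that reached a value of 10 in 2 or more libraries. Calls needed a Benjamini-Hochberg adjusted p below 0.05 plus a log2 change (F-tests: range) of 1 or more. Recovery was tested on simulated data.

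Intervals were named by rule among regions whose mean was at least the median of all intervals: the 6 largest by the smaller of the 2 rule differences with separated day 11 libraries, up to 2 per direction and comparison with libraries separated in each population, the largest population and interaction ranges, the 2 nearest on each side of the threshold, and the 2 longest runs of consecutive numbers. Interval_112329 on day 7 was named after its value was seen, as the 1 call. Blocks shifted between genotypes were found from running medians over 501 intervals.

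Replicate numbers paired the libraries (each residual correlation of the same number over 0.1) among the populations of WT day 5, MUT day 5 and MUT day 9, with mean correlations of 0.205, 0.198 and 0.279. In the other comparisons not every pair passed 0.1. Their means still went from 0.040 (MUT minus WT, day 5) to 0.238 (MUT day 9 minus WT day 9 NFIAp). Tests over population means treat libraries as independent. Alternatives were a pseudocount of 1 or 20, no filter, no minimum change, quantile normalization, equal totals, fits restricted to the compared groups, a replicate block, edgeR 4.0.16 on recovered reads, and leaving out libraries or blocks. ATAC reads are not all independent molecules. Figures used matplotlib 3.10.9.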

Additional observations from a re-analysis of the deposited data

How the results depend on the processing

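The number of regions depends on the pseudocount and the scaling: the rule found 6795 with a pseudocount of 1, 447 with 20 and 4317 with equal library totals, against 2293; those 4317 held all 2293. With single libraries left out it found 2215 to 2435. In 1 comparison the direction with more calls depended on the scaling: from day 7 to day 9 in MUT, 123 rose and 211 fell as reported, and 159 and 147 with equal library totals. No median reversed its sign under the settings run. Nor did any named change, apart from that of Interval_112329 on day 7, which was not followed. Without a minimum change the counts called were 379 on day 5, 284 on day 7, 1698 on day 9 against NFIAp, 1765 and 1804 from day 5 to day 7 in WT and MUT, 1386 from day 7 to day 9 in MUT, and for populations 1127 in MUT day 5, 1205 in WT day 11 and 1160 in MUT day 11. With a pseudocount of 20 they were 2, 0, 374, 570, 556 and 196 for the same 6 comparisons of conditions, 287 for populations in WT day 11 and 358 in MUT day 11; with a pseudocount of 1 they were 21 on day 5 and 2 on day 7. On day 5, 5 were called without the shifted blocks, 3 with quantile normalization and 26 with edgeR; on day 7, 2 with edgeR and 7 without the 3 libraries in doubt. The interaction on day 11, like the day 11 population counts a description, had 46 without those libraries. Shares of all intervals were not tabulated for the counts in these settings. The causes were not tested.

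Leaving out 1 library gave 4 to 12 on day 5, 0 to 3 on day 7, 542 to 805 on day 9, 890 to 955 and 863 to 910 from day 5 to day 7 in WT and MUT, 320 to 353 from day 7 to day 9, 585 to 740, 673 to 745, 460 to 680, 636 to 719 and 622 to 709 for populations in WT day 5, MUT day 5, MUT day 9, WT day 11 and MUT day 11, and 20 to 41 for the interaction. The lowest day 5 count came without WT D5 pMN replicate 2. On day 7 the count was 0 without MUT D7 pMN replicate 1 or 2, MUT D7 p0-p1 replicate 2 or WT D7 pMN replicate 1 or 2, and 3 without MUT D7 pMN replicate 3.

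With the replicate block the counts were 7, 1, 696, 910, 889 and 330 for the comparisons of conditions, 728, 705, 678, 672 and 647 for populations in the order above and 38 for the interaction, so it moved no count by over 1.5 times. Of the named changes followed through the settings, 2 lost their call in 1 setting each. These were Interval_112329 on day 5 with a pseudocount of 20 (0.99), and Interval_46265 in fits restricted to the compared groups. The day 7 change of Interval_112329 was not followed in this way. As the only day 7 call, it was lost with a pseudocount of 20 and without each of the libraries listed above that gave a day 7 count of 0. The medians of the differences moved by more than the spread between replicates in 4 combinations of comparison and setting and by less in 147. Low values in WT day 11, often under 20 reads, limit how well fold changes there are known.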
